A study of Mus musculus with 17 samples.

Results

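This section follows DNA methylation at genes for glutamate, GABA, monoamine, acetylcholine and neuropeptide receptors in the blood of young, old and diet-restricted mice. The 55 listed genes hold 640 CCCGGG sites between 1000 bp upstream of the transcription start and the gene end (GENCODE M1, mm9). Of these, 66 sites in 19 genes had at least 50 reads in at least 13 of 17 mice and are described here, out of 18884 autosomal sites that met the same filter. The other 36 genes had no site at that depth, and 3 of them (Sstr1, Oprk1 and Oxtr) had no CCCGGG in their window.

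The mice were C57BL/6, an inbred strain, and methylation was measured in whole blood by DREAM, a sequencing assay of restriction sites. SmaI cuts only unmethylated CCCGGG, XmaI then cuts the methylated ones that remain, and the read end records which enzyme cut. The AL-young group held 5 mice of 4 months (2 females, 3 males) and the AL-old group 7 mice of 29 to 33 months (5 females, 2 males), both with food ad libitum (AL). The CR-old group held 5 mice of 32 to 38 months (2 females, 3 males) under caloric restriction (CR). Each mouse was measured once, and the numbers after the group name a mouse. Blood is a mixture of cell types, so a change within cells and a change in cell proportions cannot be told apart.

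Receptors of fast synaptic transmission are ion channels built from several subunits. Ionotropic glutamate receptors of the AMPA, kainate and NMDA types excite (the delta type is a relative that glutamate does not open), and GABA type A channels inhibit. Metabotropic glutamate, GABA type B, most monoamine and the neuropeptide receptors instead signal through G proteins. These genes are best known from neurons, many start in CpG islands (CGI, stretches rich in CpG that are mostly unmethylated), and GABA, serotonin, adrenergic and somatostatin receptors are also known from immune cells.

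The sequences below show 6 of the 7 CCCGGG sites called between AL-old and AL-young mice (1 per gene, without the second Grid1 site 103 bp from the first), and 1 upstream site of Grm4 that stayed unmethylated. Each is read 5′ to 3′ on the strand of the gene from the mm9 assembly, with the central CCCGGG and every other CG in capitals, and with the coordinates of the whole window. Windows that touch an untranslated exon were kept to 30 bases.
Gria4, chr9:4796048-4796077: cataccCGgcccCCCGGGgtagtttcctgc
Sstr4, chr2:148221173-148221202: CGcattcCGctgCCCGGGgtgggcacccCG
Grin2a, chr16:9993865-9993970: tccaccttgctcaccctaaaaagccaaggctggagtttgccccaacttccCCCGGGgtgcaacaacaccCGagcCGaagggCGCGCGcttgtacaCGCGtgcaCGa
Htr1b, chr9:81526531-81526636: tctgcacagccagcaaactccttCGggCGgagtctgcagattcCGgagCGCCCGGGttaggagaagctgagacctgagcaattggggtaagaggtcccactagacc
Grid1, chr14:35641417-35641522: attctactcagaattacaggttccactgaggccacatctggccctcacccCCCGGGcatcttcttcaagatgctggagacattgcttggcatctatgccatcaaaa
Grm4 intron, chr17:27582907-27583012: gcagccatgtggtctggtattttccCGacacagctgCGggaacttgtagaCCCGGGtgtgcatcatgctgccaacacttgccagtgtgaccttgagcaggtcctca
Grm4 upstream, chr17:27650333-27650438: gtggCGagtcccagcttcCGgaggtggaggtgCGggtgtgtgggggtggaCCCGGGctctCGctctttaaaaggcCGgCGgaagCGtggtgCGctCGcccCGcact
The 30-base windows of Gria4 and Sstr4 held 2 and 4 CG, counting the one inside the CCCGGG. Among the 106-base windows, the intron window of Grin2a held 9 CG and the upstream window of Htr1b 5, the Grid1 intron had 1, the Grm4 intron 3 and the Grm4 upstream window 11. Over 300 bp around the site there were 13 CpG at Gria4, 33 at Sstr4, 18 at Grin2a and 12 at Htr1b, against 5 at the Grid1 site and 8 at the Grm4 intron site.

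Reads per mouse ran from 6427598 to 52015913, and the median number of reads at a receptor site ran from 76 to 1365. Of 1122 values (66 sites in 17 mice), 20 had fewer than 50 reads and were left out. Raw methylation is the share of methylated reads, and adjusted methylation is the percent that the authors corrected with spiked standards. The correction multiplies the odds of methylation by a factor per mouse. It was 0.896 to 1.132 in AL-young mice, 0.872 to 3.957 in AL-old mice and 0.885 to 1.803 in CR-old mice. A limit of 1.3, set here and named in no label, puts 6 mice above it, called high-correction, which are the 5 AL-old females and CR-old 06. For age this class therefore cannot be told apart from the female AL-old mice, and raw values of these mice lie below their adjusted values.

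Of the 66 sites, 46 lay in a CGI and 35 in a promoter (from 1000 bp before to 500 bp after a start). There were 15 upstream of a gene, 28 in introns, 15 in untranslated exons and 8 in coding exons. In AL-young mice 42 island sites in 17 genes had less than 5% methylation, 17 sites in 7 genes lay between 5 and 90%, and 4 sites outside islands (Grid1, Grik3 and both sites of Gabrb1) exceeded 90%. The other 3 sites were a Grin3b coding exon site in an island at 98.6% and the low sites of Gabbr2 and Htr1b outside islands. The heat map of all sites shows these layers and the mice that depart from them.

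**Figure D1:**
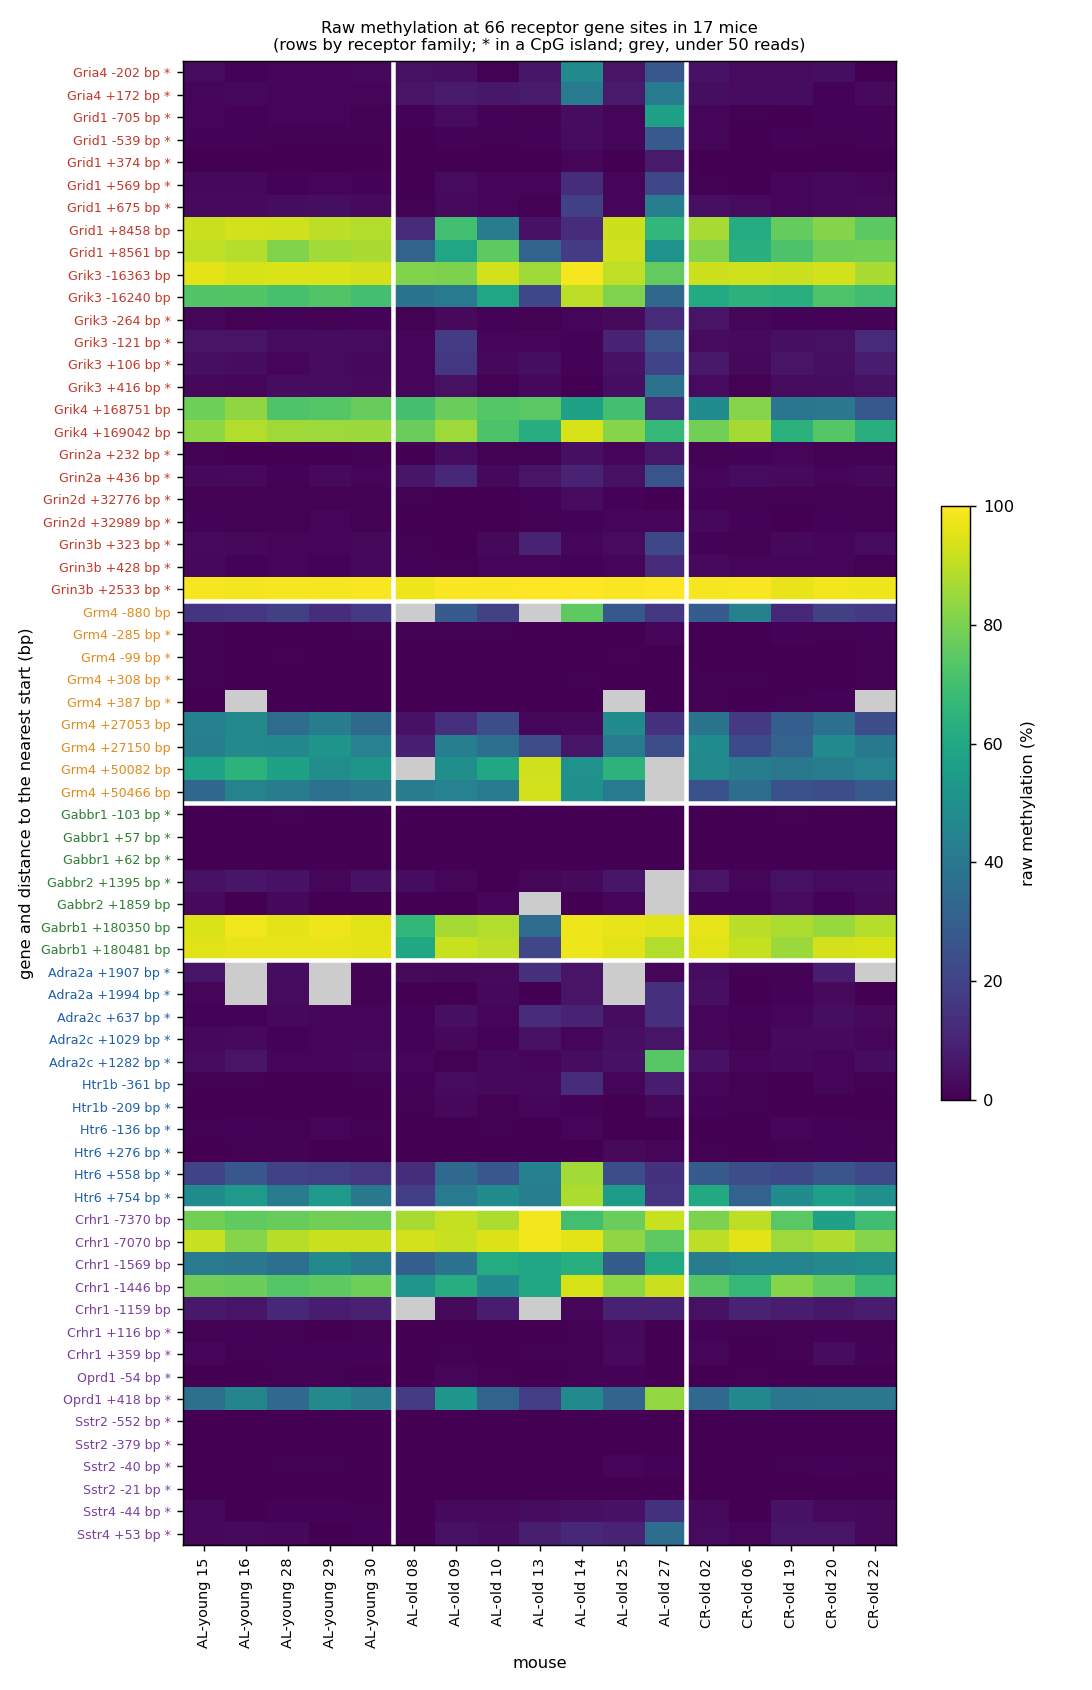
Raw methylation (colour, in percent) at 66 receptor gene sites (rows, with the distance to the nearest transcription start in bp) in 17 mice (columns, with white lines between the 3 groups). The SD was larger in AL-old than in AL-young mice at 59 of 66 sites, and of the island sites unmethylated in AL-young mice AL-old 27 exceeded 10% at 18 and AL-old 14 at 6.

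Methylation was first compared between AL-old and AL-young mice, which asks how blood methylation at receptor genes differs with age. By edgeR's quasi-likelihood F test over all 18884 sites, with a Benjamini-Hochberg adjusted p below 0.05 and a gap of 2 points or more between raw group means as the call, methylation rose at 4 receptor sites, 1 each in Gria4, Grin2a, Htr1b and Sstr4, against 3.94% of all sites called higher. It fell at 3 sites, 2 in Grid1 and 1 in Grm4, against 6.01% of all sites called lower and 9.94% called in either direction. These are 6.06% and 4.55% of the receptor sites, both near the share over all sites. The median raw difference over the 66 sites was 0.35 points (-0.02 over all sites), with 39 sites above 0 and 26 below. On adjusted values the median was 1.73 points (0.19 over all sites) with 55 sites above 0, or 83.3% of them against 69.2% of all sites. Treating the factor as an offset moved the median log2 odds ratio of all sites by 0.57, from -0.29 to 0.28, and that of the receptor sites from 0.38 to 1.11. In raw values every AL-old mouse was above every AL-young mouse at 2 receptor sites (2.0% of all sites) and below at 1 (2.07%). By family, the raw age difference was above 0 at 17 of 24 ionotropic glutamate sites, 4 of 9 metabotropic, 0 of 7 GABA, 9 of 11 monoamine and 9 of 15 neuropeptide receptor sites, and on adjusted values at 18, 7, 5, 11 and 14 of them.

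Among the ionotropic glutamate receptors, Gria4, which encodes an AMPA receptor subunit, rose in an untranslated exon 172 bp after a start (chromosome 9, 4796060 to 4796065, in a CGI from 4795584 to 4796427). Raw methylation was 1.70, 2.19, 1.95, 1.29 and 1.85% in the AL-young mice. In the AL-old mice it ran from 5.41% to 41.6% with a median of 7.34%. The CR-old mice had 3.87, 2.86, 3.38, 0.93 and 2.5%. All 7 AL-old mice lay above all AL-young and all CR-old mice, with AL-old 14 and AL-old 27 both at 41.6% and the other AL-old mice at 7.41% or less. The means were 1.80 ± 0.33% (SD, n = 5), 16.7 ± 17.03% (n = 7) and 2.71 ± 1.12% (n = 5), with 77 to 1566 reads per mouse. On the log2 odds scale edgeR gave an age effect of 2.89 (SE 0.73, adjusted p = 0.00409). The second Gria4 site, 341 bp away in the same island, had 1.82% in the young and 13.6% in the old AL mice and missed the threshold (edgeR adjusted p = 0.0704). There AL-old 14 had 47.3% and AL-old 27 had 27.1%.

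Grin2a encodes an NMDA receptor subunit that binds glutamate. Its island site in an intron, 436 bp after the nearest start (chromosome 16, 9993915 to 9993920) had 2.07, 2.65, 1.07, 2.41 and 1.61% in AL-young mice. AL-old mice ran from 2.33% to 26.2% with a median of 5.95%, and CR-old mice had 1.95, 2.80, 2.55, 1.83 and 2.15%. AL-old 27 was highest, and AL-old 10 lay inside the AL-young range, so the groups overlapped in raw values. The means were 1.96 ± 0.63% (n = 5), 9.44 ± 8.02% (n = 7) and 2.26 ± 0.41% (n = 5), and the age effect was 2.06 in log2 odds (SE 0.67, edgeR adjusted p = 0.0324). The call was lost without AL-old 27, where the difference fell to 4.69 points (edgeR adjusted p = 0.0611), and without any single AL-young mouse or AL-old 09. It was also lost with a term for correction class (edgeR adjusted p = 0.0575) and when the fit held the AL groups alone (0.0747). With the correction factor as an offset and by limma the call was kept. In adjusted values all AL-old mice (3.41 to 24.3%) lay above all AL-young mice (1.25 to 2.66%). The adjusted difference was 12.8 points (exact permutation p = 0.00758, two-sided, n = 7 and 5, not adjusted for the choice of the site). The neighbouring Grin2a site, 204 bp away, had 0.36% and 2.42% (edgeR adjusted p = 0.0558).

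Grid1, which encodes a delta glutamate receptor, held called losses at intron sites and island sites whose AL-old means were higher. In an intron 8458 bp after the start and outside islands (chromosome 14, 35641467 to 35641472), AL-young mice had 91.8, 93.3, 92.7, 90.2 and 88.6%. AL-old mice ran from 5.03% (AL-old 13) to 92.5% (AL-old 25) with a median of 41.97%. CR-old mice had 86.8, 61.8, 76.4, 81.5 and 74.7%, each below every AL-young mouse. The means were 91.3 ± 1.90%, 42.9 ± 34.2% and 76.3 ± 9.35%, and the age effect was -4.11 in log2 odds (SE 0.85, edgeR adjusted p = 0.000379). The next site, 103 bp on, which can share its fragment, fell as well, with means of 86.8% in young and 51.4% in old AL mice (edgeR adjusted p = 0.00879), and had 74.8% in CR-old mice. The high-correction mice AL-old 08, 13 and 14 had the lowest values at the first site, 12.1, 5.03 and 12.6%, while the low-correction AL-old 25 and 27 had 92.5 and 66.1%. When the fit had a term for correction class, edgeR adjusted p was 0.175, and among the low-correction mice it was 0.278. The correction class and the sex of the AL-old mice cannot be told apart here. In adjusted methylation the difference was -40.8 points (exact permutation p = 0.0177 over 792 splits, two-sided, n = 7 and 5).

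The 5 island sites of Grid1 ran from 0.03 to 2.98% in AL-young means and from 1.29 to 9.89% in AL-old means, with no call. AL-old 27 was the highest mouse at all 5. At -705 bp from the start it had 57.2% (677 reads) and the next highest of all mice had 3.33%. At -539 bp it had 27.98% and the next mouse 2.78%.

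The kainate receptor genes Grik3 and Grik4 had no call. The 6 Grik3 sites had AL-young means from 0.87 to 94.4%, AL-old means from 2.94 to 86.5% and CR-old means from 1.98 to 91.5%. At its island site 416 bp after the start AL-old 27 had 37.1% and no other mouse exceeded 4.56%, while at -121 bp AL-old 09 (17.9%) and CR-old 22 (12.3%) were high beside AL-old 27 (25.4%). A Grik4 intron site (chromosome 9, 42447980 to 42447985) had 76.8% in AL-young, 62.1% in AL-old and 47.5% in CR-old means. There 4 of the 5 CR-old mice had 27.5 to 48.6%, CR-old 06, the high-correction mouse, had 81.9%, and AL-old 27 had 12.04%. The NMDA receptor genes Grin2d and Grin3b had none called either. Both coding exon sites of Grin2d stayed under 3% in every mouse, and Grin3b held a pair of low island sites and, in a coding exon, a site at 98.6% in AL-young, 99.4% in AL-old and 97.9% in CR-old means, which also lies in ORF61 on the other strand.

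Metabotropic glutamate receptors were represented by Grm4 alone, a receptor that couples to inhibitory G proteins. Its 9 sites had AL-young means from 0.04 to 56.2%, AL-old means from 0 to 63.4% and CR-old means from 0.15 to 43.2%. The intron site 27053 bp after the nearest start (chromosome 17, 27582957 to 27582962) was called lower in AL-old mice. AL-young mice had 43.9, 47.0, 34.8, 42.3 and 34.2%, AL-old mice ran from 1.66% to 48.4% with a median of 13.7%, and CR-old mice had 38.4, 16.7, 29.9, 36.6 and 23.5%. All AL-old mice except AL-old 25 (48.4%) lay below all AL-young mice. The age effect was -2.62 in log2 odds (SE 0.74, edgeR adjusted p = 0.011), and with a term for correction class edgeR adjusted p was 0.48. The call was also lost among low-correction mice. It was kept with the correction factor as an offset, by limma and with sex as a covariate. In adjusted methylation the difference was -21.3 points (exact permutation p = 0.0215, two-sided, n = 7 and 5). The neighbour 97 bp away, outside the threshold (edgeR adjusted p = 0.136), had means of 46.6 ± 3.40% in young and 25.9 ± 14.9% in old AL mice, with every AL-old mouse below every AL-young mouse in raw values. In adjusted values its difference was -11.1 points (exact permutation p = 0.25, two-sided, n = 7 and 5).

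At the Grm4 3′ end, 50082 and 50466 bp after the nearest start, the values went the other way. AL-old means were 63.4 and 51.9% against 56.2 and 39.5% in AL-young mice, and AL-old 13 had 92.7 and 93.1%. These means rest on 5 and 6 of the 7 AL-old mice, since the others had too few reads. The 4 island sites from -285 to 387 bp around the Grm4 start, 1 of them printed above, stayed at or under 1.73% in every mouse, whereas at -880 bp, outside the island, AL-old 14 had 75.2% against 12.7 to 18.8% in AL-young mice. None of these Grm4 sites passed the age test by edgeR.

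GABA receptor genes had no call in 7 sites. The 3 island sites of Gabbr1, which encodes a subunit of the GABA type B receptor, had at most 0.50% in any mouse. At 1 of them no read of 11474 over all mice was methylated, which allows a share of up to 0.0261%. The smallest p-values were at both intron sites of Gabrb1, a GABA type A channel subunit (chromosome 5, 72271519 and 72271650). At the latter AL-young mice had 95.4, 96.5, 96.4, 96.4 and 95.9%. AL-old mice ran from 21.3% to 97.4% with a median of 89.9%, and CR-old mice had 95.7, 91.1, 85.0, 93.4 and 93.9%. AL-old 13 and AL-old 08, at 21.3 and 60.0%, were low and the other AL-old mice lay at or above 88.4%. The edgeR adjusted p was 0.114 there and 0.171 at the former site, where AL-old 13 had 35.2%.

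Among the monoamine receptors, Htr1b, a serotonin receptor that couples to inhibitory G proteins, rose at -361 bp from its start (chromosome 9, 81526581 to 81526586). This CCCGGG lies outside the CGI called here and inside the lincRNA D430036J16Rik on the other strand. AL-young mice had 0.64, 0.58, 0.38, 0.30 and 0.55%, and CR-old mice had 1.24, 0.45, 0.28, 1.39 and 0.44%. AL-old mice ran from 1.03% to 12.7% with a median of 2.19%, all above the AL-young mice, and AL-old 14 and AL-old 27 were highest at 12.7 and 8.17%. The means were 0.49 ± 0.14%, 4.42 ± 4.37% and 0.76 ± 0.51% (n = 5, 7 and 5), on 810 to 6541 reads, and the age effect was 2.71 in log2 odds (SE 0.71, edgeR adjusted p = 0.0054). The island site 152 bp away had 0.26 ± 0.11% and 1.13 ± 0.76% (edgeR adjusted p = 0.0761).

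The other monoamine genes had no call. Adra2c encodes an alpha-2 adrenergic receptor, and its 3 island sites in untranslated exons had AL-young means from 1.44 to 2.74%. At 637 bp after the start AL-old 27, 13 and 14 had 13.97, 12.8 and 9.77% (edgeR adjusted p = 0.0885). At 1282 bp AL-old 27 alone had 74.1% (108 reads), and no other mouse exceeded 5.14%. Adra2a, a related receptor, reached 13.9% in AL-old 13. Htr6, a serotonin receptor that raises cyclic AMP, had 2 sites of intermediate methylation in its island 558 and 754 bp after the start. Both were highest in AL-old 14, at 86.3 and 87.5%, while AL-old 27 had 14.8 and 15.4%. Its 2 sites nearest the start stayed at or under 2.67% in every mouse.

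Among the neuropeptide receptors, the somatostatin receptor gene Sstr4 rose 53 bp after the nearest start (chromosome 2, 148221185 to 148221190, in a CGI from 148220667 to 148222076). AL-young mice had 2.21, 2.41, 2.10, 0 and 1.16%, where 0 of 79 reads allows up to 3.80%. AL-old mice ran from 0 of 96 reads (up to 3.12%) to 36.0% with a median of 8.26%, and CR-old mice had 2.80, 1.6, 5.71, 5.26 and 2.27%. AL-old 27 was highest and AL-old 08 had no methylated read. The means were 1.58 ± 1.00%, 10.49 ± 11.9% and 3.53 ± 1.85%, and the age effect was 2.38 in log2 odds (SE 0.83, edgeR adjusted p = 0.0499). This call sits at the threshold. It was lost without AL-old 27, when the difference fell from 8.91 to 4.67 points (edgeR adjusted p = 0.101), and without 12 of the other mice, and when the fit held the AL groups alone (edgeR adjusted p = 0.099). The site at -44 bp had 1.00 ± 0.78% and 4.55 ± 4.67% (edgeR adjusted p = 0.161) and again AL-old 27 was highest with 14.6%.

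The remaining neuropeptide receptors had no call. All 4 sites of Sstr2, another somatostatin receptor, stayed at or under 1.68% in every mouse on up to 28229 reads over all mice, and these sites also lie in Slc39a11 on the other strand. Oprd1, the delta opioid receptor gene, had an intron site at 41.1%, 40.6% and 40.0% in the raw AL-young, AL-old and CR-old means. Single AL-old mice there ran from 17.3 to 83.8%, so that nearly equal raw means covered a wide range. The lowest of them, the high-correction AL-old 08 and 13 at 17.3 and 18.3%, had 40.6 and 47.5% in adjusted values. Adjusted AL-old values ran from 29.8 to 81.9%, and the near equality is one of raw means. Crhr1, the receptor of corticotropin-releasing hormone, had 7 sites with AL-young means from 0.69 to 89.4%, AL-old means from 0.51 to 90.2% and CR-old means from 0.75 to 88.3%.

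**Figure D2:**
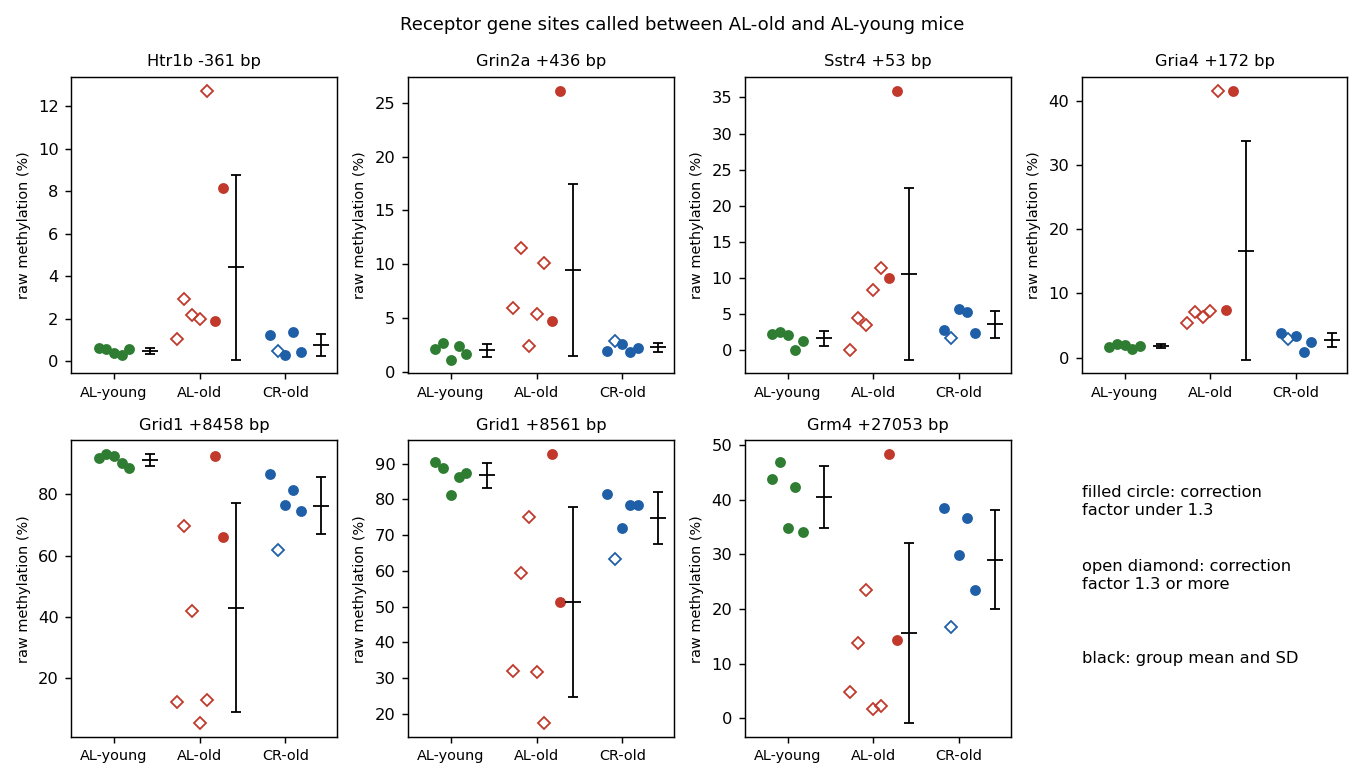
Raw methylation (percent, separate linear axes) of each mouse at the 7 receptor gene sites called between AL-old and AL-young mice, with the distance to the nearest start, group means and SD in black. At Gria4 AL-old 14 and 27 both reach 41.6% and the other AL-old mice stay at or below 7.41%, and at the first Grid1 site the 3 lowest mice, from 5.03 to 12.6%, are high-correction mice (open diamonds).

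The 42 island sites with less than 5% methylation in AL-young mice were then described mouse by mouse, first in raw values. Their mean was 1.17 ± 0.20% over AL-young mice (n = 5), 3.90 ± 4.42% over AL-old mice (n = 7) and 1.47 ± 0.40% over CR-old mice (n = 5). Over all 11104 sites of this class the means were 0.42 ± 0.05%, 1.51 ± 1.40% and 0.52 ± 0.11%. AL-old 27 had a mean of 13.5% at the receptor sites and AL-old 14 had 4.79%, and the other AL-old mice had 0.86 to 2.5%. The AL-old mean was 2.30 ± 1.41% without AL-old 27. AL-old 27 exceeded 10% at 18 of 41 sites in 8 genes (Gria4, Grik3, Grin2a, Grin3b, Grid1, Adra2a, Adra2c and Sstr4), and AL-old 14 at 6 sites in 4 genes. No AL-young mouse exceeded 5.93% at any of the 42 sites. In CR-old mice the only value above 10% was that of CR-old 22 at Grik3. AL-old 27 is a low-correction mouse, and its mean over all sites of the class, 4.52%, was the highest of the 17 mice as well. In adjusted values the means of all AL-old mice, 1.65% (AL-old 10) to 12.9% (AL-old 27), were above those of all AL-young mice (1.15 to 1.61%). AL-old 13, 14 and 09 had 7.91, 6.37 and 5.32%, and CR-old mice had 1.6 to 1.87%. The deposited percent has 0.5 added to the methylated reads, and the factor multiplies the odds of this percent.

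**Figure D3:**
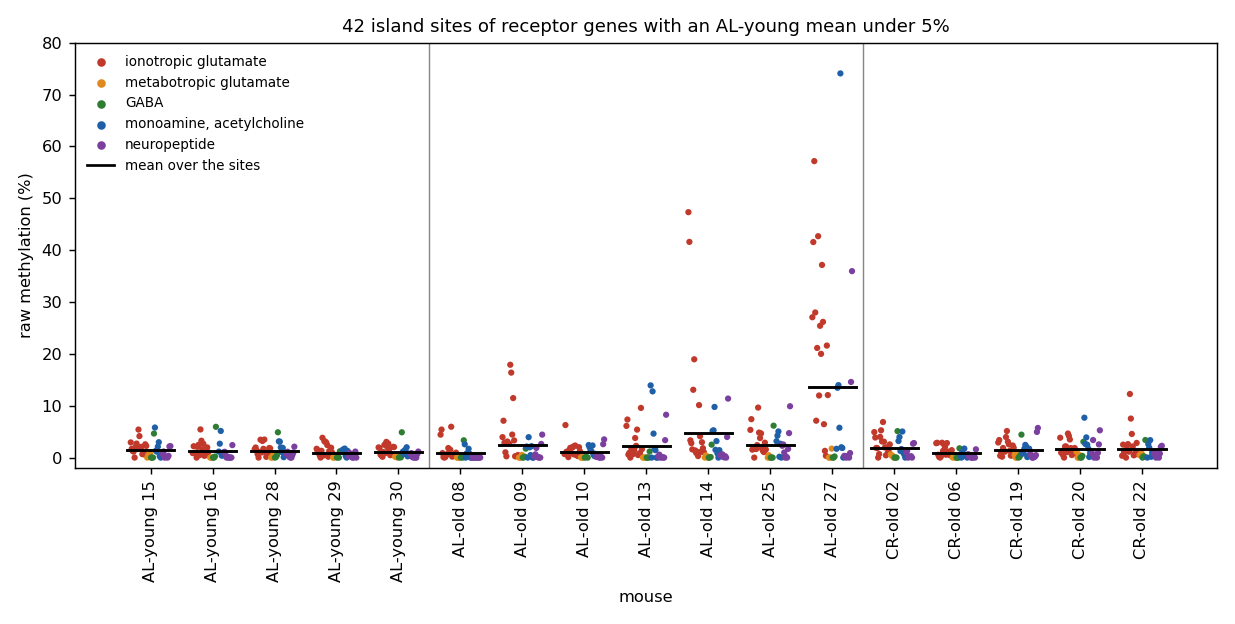
Raw methylation (percent) at the 42 island sites with an AL-young mean under 5%, for each of 17 mice, with points coloured by receptor family and a black bar at the mean over sites. The mean of AL-old 27 is 13.5% and that of each CR-old mouse is between 0.79 and 1.81%.

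Within this class the differences were larger at sites with 1 to 5% methylation in AL-young mice, and most of their size came with AL-old 27. Of 18 sites with an AL-young mean from 1 to 5%, 13 (72.2%) were at least 2 points higher in AL-old mice, with a median of 4.59 points, against 50.2% and a median of 2.02 points over 1378 sites of that range. Of 24 sites under 1%, 4 (16.7%) were at least 2 points higher, against 8.02% of 9726 sites. Without AL-old 27, a comparison chosen after seeing the data, 7 of the 18 sites (38.9%) were at least 2 points higher with a median of 1.497 points, against 35.2% and a median of 0.55 points over all sites of that range, and 0 of the 24 were. Across the 42 sites, the Spearman rho of the age difference was 0.57 with the AL-young mean, 0.07 with the CpG count in 300 bp and 0.16 with the distance from the nearest start, and the first was 0.27 without AL-old 27. Sites share libraries and some share fragments, and the AL-young mean enters both measures of the first, so these are descriptions only. On raw values 30 of the 42 sites had a difference above 0 (48.3% over all sites of the class), and on adjusted values all 42 had (87.4%). The raw median over the 42 sites was 1.13 points, and 0.21 points without AL-old 27, when 24 sites were above 0. The Gabbr1 site without a methylated read is among them, with an adjusted difference of 0.07 points, since the deposited percent has 0.5 added to the methylated reads.

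The spread between mice was widest in the AL-old group at most receptor sites. The median SD over the 66 sites was 0.63 points in AL-young, 6.62 points in AL-old and 1.21 points in CR-old mice. AL-old mice had the larger SD of the AL groups at 59 of 66 sites (70.7% over all sites), and they exceeded CR-old mice at 53 (65.0%). Without AL-old 27 the AL-old median SD was 2.85 points, and it exceeded that of AL-young mice at 57 sites and that of CR-old mice at 45. At the 17 sites between 5 and 90% the median SD was 4.21 points for AL-young and 6.26 points for CR-old mice, and AL-old mice had the larger SD than AL-young mice at all 17. The groups hold 5, 7 and 5 mice and no test was run on the spread.

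There were 39 pairs of adjacent CCCGGG sites within a gene, 79 to 5501 bp apart, which can be opposite ends of a fragment. The raw age differences had the same sign in 32 pairs, where a difference of 0 at a Gabbr1 site was counted as negative. High values in a single mouse often did not extend evenly. In AL-old 27 the Adra2c sites 253 bp apart had 5.75 and 74.1%, and the Grid1 upstream sites 166 bp apart had 57.2 and 27.98%. Pairs whose largest difference stayed under 1 point included those of Gabbr1.

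CR-old mice were next set against AL-old mice, which asks how diet bears on these genes at old age and which uses the same AL-old mice as the age comparison. The groups also differed in age (32 to 38 against 29 to 33 months), females (2 of 5 against 5 of 7) and high-correction mice (1 against 5). A difference between them therefore need not be one of diet alone. Methylation was lower in CR-old mice at 1 receptor site by edgeR, that of Gria4 described above, against 1.76% of all sites called lower and 3.34% called in either direction. It was called higher at 0 receptor sites by edgeR and by limma, against 1.57% of all sites by edgeR. An unadjusted edgeR p under 0.05 was found at 11 of the 66 sites, against 15.8% of all sites tested. At Gria4 the diet effect was -2.37 in log2 odds (SE 0.72, edgeR adjusted p = 0.0484), the raw difference -13.96 points and the adjusted difference -19.8 points (exact permutation p = 0.0177, two-sided, n = 5 and 7). This call was lost with a term for correction class (edgeR adjusted p = 0.0544), without AL-old 14 (0.109), without AL-old 27 (0.0853), without any AL-young or CR-old mouse or AL-old 09 (0.0508 to 0.182), and when the fit held the old groups alone (0.142).

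At the other sites gained with age the CR-old values were also low. Htr1b had 4.42% against 0.76% in CR-old mice (edgeR adjusted p = 0.0541), Grin2a 9.44% and 2.26% (0.118) and Sstr4 10.49% and 3.53% (0.476), none past the threshold. With the correction factor as an offset, and by limma, a site in each of Htr1b, Grin2a and Grm4 was called lower beside Gria4. With a term for correction class no receptor site was called for diet. At the sites lost with age the CR-old means lay between those of the AL groups, with an edgeR adjusted p for diet of 0.0832 and 0.281 at Grid1 and 0.164 at Grm4. In raw values every CR-old mouse was below every AL-old mouse at 3 receptor sites (0.81% of all sites), Gria4 and the pair at the Grm4 3′ end, where CR-old means were 43.2 and 27.7%. Those Grm4 sites had AL-old values of 49.6% or more and 40.8% or more, and CR-old values of at most 47.3 and 36.1% (edgeR adjusted p = 0.287 and 0.163). Over the 66 sites the median raw diet difference was -0.87 points (0 over all sites) and the adjusted one -1.99 points. Without AL-old 27 the raw median was 0.03 points.

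**Figure D4:**
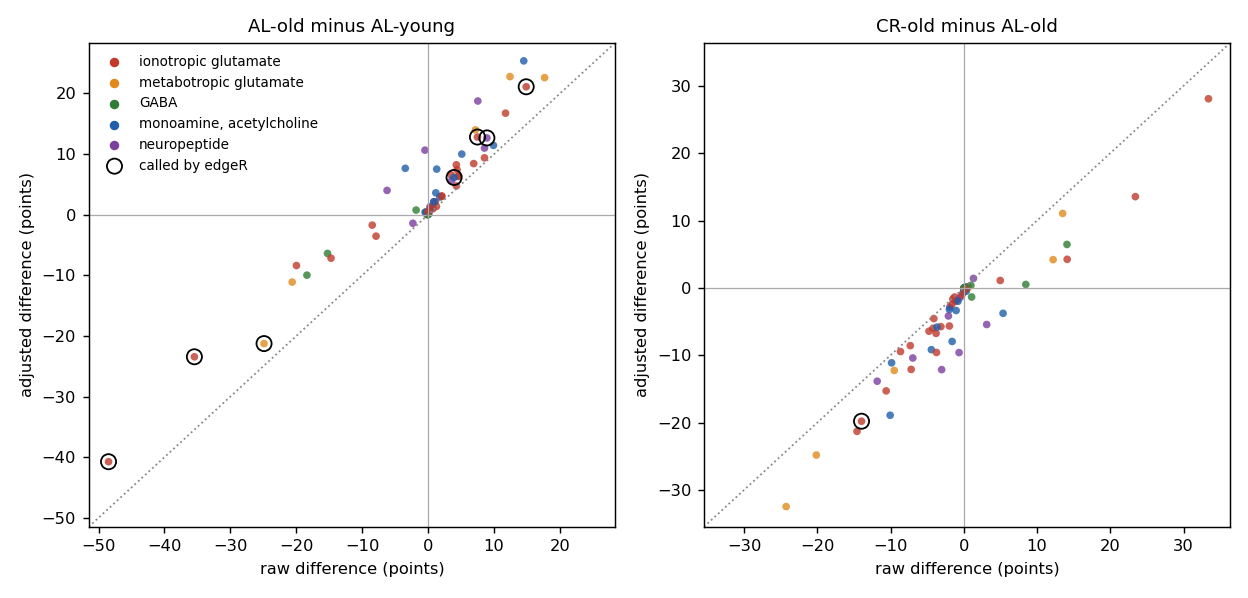
Difference of group means at 66 receptor sites in raw methylation (horizontal axis, points) and adjusted methylation (vertical axis, points), for age at left and diet at right, with the dotted line marking equal values and circles marking edgeR calls. For age the points lie mostly above the line, and 16 sites change sign between raw and adjusted values; for diet they lie mostly below it, and 13 change sign.

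CR-old mice were finally compared with AL-young mice. By edgeR 0 receptor sites were called in either direction, against 0.0% of all sites, and limma called 0 as well. An unadjusted edgeR p under 0.05 was found at 2 of the 66 sites, against 6.83% of all sites. They were the Grid1 intron site described above and the Grik4 intron site, both with lower CR-old means. In raw values every CR-old mouse was below every AL-young mouse at 3 receptor sites, in Grid1, Grm4 and Grik3, against 6.74% of all sites. The smallest edgeR adjusted p was 0.634 at a receptor site and 0.0864 over all sites. When only these 2 groups entered the fit, 4 receptor sites in Gabrb1, Grid1 and Grik4 were called lower in CR-old mice (6.29% of all sites). At the 42 island sites the median raw difference between CR-old and AL-young mice was 0.10 points, with a range from -0.76 to 2.31 points.

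Other genes of these systems were read from lists of related receptors, of transmitter synthesis, transport and ligands, and of receptor scaffolds and auxiliary subunits. Related receptors had 28 sites in 10 of 78 genes, of which 2 rose with age and 0 fell (by edgeR 3.94% of all sites rose and 6.01% fell). They were in Ntsr2, a neurotensin receptor (3.33 ± 0.88% in AL-young, 22.4 ± 18.4% in AL-old and 4.16 ± 1.87% in CR-old mice, edgeR adjusted p = 0.0109), and in Chrna7, a nicotinic acetylcholine receptor subunit (0.83, 5.15 and 0.68%, edgeR adjusted p = 0.0453). Genes of synthesis, transport and ligands had 33 sites in 10 of 38 genes, with 2 sites higher and 2 lower in AL-old mice, against the same shares. Oxt, which encodes the oxytocin precursor, had 1.66 ± 0.63%, 25.9 ± 26.99% and 2.51 ± 1.92% (edgeR adjusted p = 0.0025), and Bdnf, a neurotrophin, had 0.72, 11.7 and 1.88% (edgeR adjusted p = 0.00563). The serotonin transporter gene Slc6a4 had 85.9, 49.0 and 81.5% (edgeR adjusted p = 0.00534), and Pdyn, the prodynorphin gene, 9.73, 4.14 and 12.1% (edgeR adjusted p = 0.029).

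Scaffold and auxiliary genes had 94 sites in 22 of 34 genes, with 5 sites higher and 4 lower in AL-old mice, also against 3.94% and 6.01% of all sites. These counts are near the shares over all sites. Dlgap1, a protein of the postsynaptic density, had 3.32 ± 1.08% in AL-young, 35.7 ± 25.6% in AL-old and 7.36 ± 2.27% in CR-old mice (edgeR adjusted p = 0.000237). Losses were at intron sites of Cacng2, an AMPA receptor auxiliary subunit (73.6, 28.8 and 53.0%, edgeR adjusted p = 0.00133), of Homer2, a scaffold (92.5, 63.6 and 86.1%, edgeR adjusted p = 0.0266), and of Dlg2, another scaffold (94.8, 70.1 and 90.7%, edgeR adjusted p = 0.012). For diet, where 1.76% of all sites were called lower, 1 site each was lower in CR-old mice in Oxt (edgeR adjusted p = 0.0267) and Dlgap1 (edgeR adjusted p = 0.0286), and none of the related receptors was called by edgeR. None of the 3 lists had a site called between CR-old and AL-young mice by edgeR.

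Of 9 sites of blood cell marker genes outside islands, 2 passed the age test. The T cell list (4 sites in 2 of 10 genes) had means of 49.7 ± 4.69% in AL-young, 32.0 ± 20.0% in AL-old and 49.9 ± 15.5% in CR-old mice, with AL-old mice from 9.23 to 70.3%. The granulocyte and monocyte list (4 sites in 2 of 12 genes) had 66.4 ± 1.03%, 53.8 ± 8.58% and 50.7 ± 3.85%, and the B cell list (1 site in Pax5) had 84.2 ± 3.75%, 74.0 ± 25.4% and 86.9 ± 5.91%. By edgeR 1 site of Cd3g and 1 site of Itgam fell with age (adjusted p = 0.0131 and 0.000194), and none was called for diet. The pan-leukocyte and erythroid lists had no site outside islands at this depth. The part of cell makeup in the receptor gene values was not tested.

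Sites near the depth limit were few. Inside it, with 13 or 14 mice at 50 reads, were both sites of Adra2a and the Grm4 site 387 bp after the start. Outside it, with 11 or 12 mice, were 5 sites, namely 2 of Gabbr2 (AL-young 58.9 and 97.5%, AL-old 81.9 and 93.8%) and 1 each of Htr6, Htr1b and Crhr1, whose AL-young means were 1.58, 0.50 and 1.13% and whose AL-old means were 0, 1.64 and 2.78%.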

How the data were processed

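Per the labels, whole blood DNA of 17 mice was spiked with methylation standards, cut with SmaI and XmaI, size selected and sequenced. The authors aligned reads to mm9 (Bowtie2 and SAMtools are named in the submitters' processing notes, without versions) and deposited counts of methylated, unmethylated and all reads for 173449 sites and 18 standard sites per mouse, and methylation in percent, raw and adjusted with the standards. The deposited percent follows 100 times methylated reads plus 0.5 over all reads plus 1, and the adjusted percent multiplies its odds by a constant per mouse. Which mouse was run on which instrument was not given in the sources used here.

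All positions lay on a CCCGGG in NCBIM37, the assembly called mm9. CGI were called there (length at least 200 bp, GC at least 50%, observed over expected CpG at least 0.6). Raw methylation was 100 times methylated over all reads, missing under 50 reads. At 50 reads a value of 50% has a 95% Wilson interval from 36.6 to 63.4%, and 3 reads are 6%. PCR reads are not independent molecules, so intervals and limits cover counting error only. Read counts of 18884 autosomal sites were fitted in edgeR 4.0.16 (R 4.3.3) with 1 coefficient per mouse, methylation terms for the 3 groups and 1 dispersion, with Benjamini-Hochberg adjustment over all sites. In limma 3.58.1 the logit of adjusted methylation was fitted. Tested on simulated data for the age comparison (4000 sites, 200 changed), edgeR recovered 31 of 100 small and 65 of 100 large changes with 3 false calls. The simulation gave all groups the same spread between mice and no correction factor, unlike these data. Its rates of recovery and false calls therefore do not carry over to them.

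The members and gene lists were chosen with earlier results of these data known. Sites given with full values were called sites (at most 1 per gene and direction, up to 12 gained and 8 lost), the 2 sites of smallest age p in each receptor list and, for related genes, up to 4 called genes per list. For Grik3, Grid1, Grm4 and Crhr1 the range of site means was given. Other sites named were picked after their values were seen. Exact tests were run with scipy 1.17.1 in Python 3.11.15, tables were joined with pandas 2.3.3 and numpy 2.4.6, and figures were drawn with matplotlib 3.10.9. The exact tests were run only at sites picked by their edgeR result in the same mice. Their p-values are not adjusted for that choice and are not independent of it. Alternatives were the correction factor as offset or covariate, low-correction mice, sex, other read minimums, no 2-point minimum, fits of 2 groups, limma and leaving out each mouse. Neighbouring sites can share a fragment and are not independent.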

Additional observations from a re-analysis of the deposited data

Results flagged for a closer look

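Dixon's test was applied to the named receptor sites and to the class means per mouse, in each group of 5 or 7 mice. It was run on raw values and marked 4 of 42 cases, and all 4 were AL-old 27. Chance marks about 1 in 20 independent cases. These cases share mice, and the class mean includes the Sstr4 and Grin2a sites, so that share is no measure for them. At the Sstr4 site 53 bp after the nearest start AL-old 27 had 36.0% raw methylation, and the gap to the next AL-old mouse was 0.684 of the range. At the Sstr4 site at -44 bp it had 14.6% (0.677). At the Grin2a site 436 bp after the nearest start it had 26.2% (0.616). Its mean over the 42 island sites with less than 5% methylation in AL-young mice was 13.5% (0.689). In adjusted values AL-old 27 was still the highest in these cases, by smaller gaps at Grin2a and at -44 bp of Sstr4. At the Sstr4 sites it had 33.8 and 13.7%, and AL-old 13 had 27.15 and 13.4%. At Grin2a it had 24.3% and AL-old 09 had 23.0%. The adjusted class mean was 12.9% in AL-old 27 and 7.91% in AL-old 13. The cause was not tested.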

How the results depend on the processing

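No paired analysis was possible because the groups share no mouse numbers. The number of receptor sites called higher with age was 4 and became 10 with the correction factor as an offset, 10 by limma, 17 among low-correction mice, where 2 AL-old mice remain, and 2 when the fit held 2 groups. Leaving out each mouse gave 2 to 7, with 2 without any AL-young mouse or AL-old 27 (Gria4 and Htr1b) and 7 without AL-old 10. Some of these higher calls were outside Gria4, Grin2a, Htr1b and Sstr4. By the offset they were in Adra2c and Grm4, and by limma in Adra2c and Grik3. Among low-correction mice they were in Adra2c, Grid1, Grik3 and Grin3b, and with the correction covariate in Grid1. Adra2c was also called without AL-old 08 or AL-old 10. The number called lower was 3, and became 2 with the offset and 2 by limma, 1 each in Grid1 and Grm4. It was 1 under the correction covariate (in Grik4, not among the 3) and 0 among low-correction mice. Leaving out a mouse gave 3 to 4. For diet the number called higher was 0 and ran from 0 to 3 on leaving out a mouse, with 3 without AL-old 25 and 1 without AL-old 09 or AL-old 27. The number called lower was 1 and became 4 with the offset, 4 by limma, 2 among low-correction mice, and 0 with the correction covariate, the sex covariate, at least 20 reads or a fit of 2 groups, and it ran from 0 to 2 on leaving out a mouse. For CR-old against AL-young, 1 site was called lower among low-correction mice and 4 in the fit of 2 groups. The median raw age difference of 0.35 points was 1.73 on adjusted values and 0.92 among low-correction mice, and that for diet, -0.87 points, was -1.99 and -2.06. On leaving out a mouse the diet median ran from -1.36 to 0.027 points, the latter without AL-old 27, and the age median from 0.05 to 0.62 points. Offset and limma calls used the 2-point minimum on adjusted means. The counts of this paragraph are given without the share of all sites called in the same fit. They describe the receptor sites only and are no result about these genes as a set. No direction of a called value reversed under these alternatives, and the Gria4 and Htr1b age calls were kept under all of them. The causes of these changes were not tested. At 50 reads a value carries the wide interval given with the processing. The high-correction AL-old mice are all the females of that group, so within it sex and correction cannot be told apart at the Grid1 and Grm4 losses. With sex as a covariate all 3 losses stayed called, and with the correction covariate none of them did. Those fits are not alike, since both sexes were in every group, while high correction held 5 AL-old, 0 AL-young and 1 CR-old mice. They do not tell sex and correction apart.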
